A study of Oryctolagus cuniculus with 6 samples.

Results

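The YAP and TEAD pathway was examined through 10 genes, namely its co-activators YAP1 and WWTR1, the DNA-binding factor TEAD1, and the genes CCN1, CCN2, ANKRD1, AMOTL2, AJUBA, LATS2 and AXL, which are known effectors, regulators or targets. They were chosen by name as Hippo effectors and targets, and all 10 were found among the 22190 genes of the count table. RNA-seq was carried out on primary rabbit limbal stem cells (LSCs), obtained as outgrowth from explants of the corneal rim, with 3 libraries from fresh tissue and 3 from preconditioned tissue. For the fresh group no freezing and no cytokine are named in the sources used here. Corneas of the preconditioned group were kept for 7 days in liquid nitrogen, in a freezing medium with serum, dimethyl sulfoxide and 10 ng/mL of the inflammatory cytokine IL-1β, and were thawed before the explants were plated. Effects of freezing and of IL-1β cannot be told apart, because the preconditioned tissue received both, and the strain, age and donor of each library are not given in the sources used here.

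In the Hippo pathway, the STK3 and STK4 kinases activate the LATS1 and LATS2 kinases, which phosphorylate YAP (the product of YAP1) and TAZ (the product of WWTR1) and so hold them in the cytoplasm. When the kinases are quiet, YAP and TAZ enter the nucleus, bind TEAD factors and switch on genes such as CCN1, CCN2 and ANKRD1. Since this control acts mostly on the proteins, transcript levels of YAP1 and WWTR1 do not measure their activity. In the corneal epithelium the pathway is known for its response to wounding and to the stiffness of the underlying matrix.

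The libraries held 31952352 to 34327534 counts on genes. Counts were scaled by TMM and expressed as CPM, the count relative to the scaled library total, and 15029 genes were tested with edgeR's quasi-likelihood test. The TMM factors were 1.06 to 1.07 in the fresh libraries and 0.914 to 0.965 in the preconditioned libraries, so that scaling raised preconditioned values relative to fresh ones. The cells had the epithelial character that their label implies, since KRT5, a basal keratin, had 9600 ± 1160 CPM in the fresh libraries and 9320 ± 2230 CPM in the preconditioned libraries (SD, 3 per group). KRT15 was low (3.56 ± 2.73 and 4.03 ± 4.92 CPM, SD, 3 per group), and KRT12 and KRT14 were not found under these symbols in the count table. Stromal transcripts were also present. The summed level of 11 stromal markers was 546, 840 and 1190 CPM in fresh replicates 1, 2 and 3 and 1400, 2360 and 1330 CPM in preconditioned replicates 1, 2 and 3. This sum includes COL1A1, a collagen gene, at 56.8, 109 and 108 CPM in the fresh libraries and 537, 693 and 505 CPM in the preconditioned libraries. By the fitted log2 fold change 7 of the 11 markers were higher in the preconditioned group and 4 were lower, namely DCN, KERA, PDGFRB and THY1. Mitochondrial genes took 1.21% to 1.84% of the counts in the fresh libraries and 0.406% to 1.09% in the preconditioned libraries. On the first principal component, which held 57.5% of the variance, preconditioned replicate 1 (1.29) stood apart from preconditioned replicates 2 and 3 (39.3 and 47.8) and from the fresh libraries (−35.2 to −26.0). In bulk RNA, fewer cells of a type and less RNA per cell cannot be told apart.

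None of the 10 genes was called between the groups. Under the call rule, which asked for an adjusted p no higher than 0.05 together with a change of 1 or more on the log2 scale in either direction, 0 of the 10 were called against 2.29% of all tested genes, and at the adjusted p alone 0 of the 10 against 5.08%. At an unadjusted p of at most 0.05, 0 of the 10 passed in edgeR, whereas 30.6% of all tested genes did. That count was 1 with the library size alone and on both FPKM scales, 2 without fresh replicate 3 and 2 without preconditioned replicate 1. DESeq2 called 0 of the 10 as well, against 7.78% of the genes it tested (19.1% at its adjusted p alone), and none of them reached an unadjusted p of 0.05 there. The fitted log2 fold change was above 0 for 7 genes and below 0 for 3, with a median of 0.17 against 0.007 over all tested genes. With the library size alone 5 genes were above 0 and 5 below, with a median of 0.001 against −0.16 over all tested genes. The median absolute log2 fold change was 0.37 for the 10 genes and 0.37 for all tested genes. All 3 preconditioned libraries lay above all 3 fresh libraries for YAP1, WWTR1 and AMOTL2, that is for 3 of the 10, against 36.7% of all tested genes that were separated in either direction and 17.9% that were separated upward. This count depended on the scaling. In the FPKM values, which use the library total alone, none of these 3 was separated and AJUBA was separated downward by a small margin, which made 1 of the 10 against 38.8% of all tested genes on that scale.

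**Figure D1:**
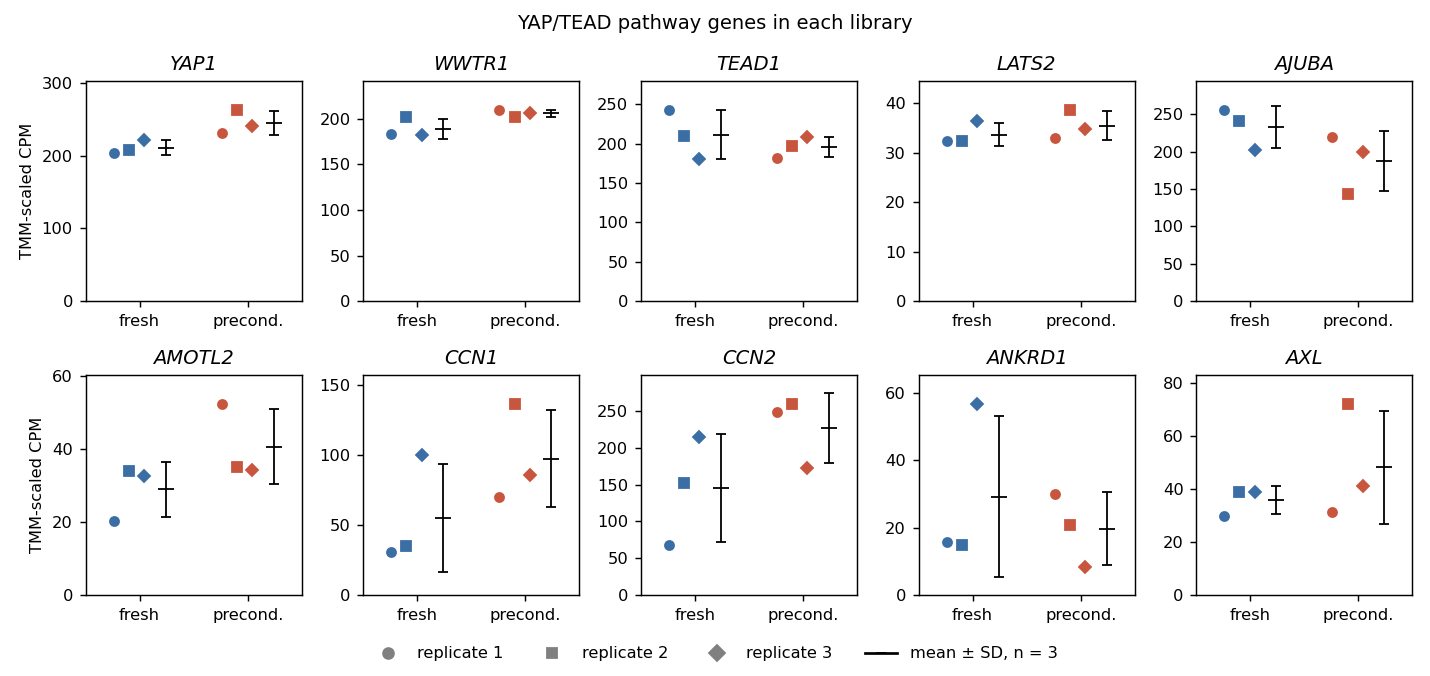
TMM-scaled CPM (vertical axis, from 0) of the 10 pathway genes in each library, with circles, squares and diamonds for replicates 1, 2 and 3 and bars for the mean ± SD (n = 3) beside each group. YAP1, WWTR1, TEAD1 and LATS2 lie close together in all 6 libraries, whereas CCN1, CCN2 and ANKRD1 spread by 3.15-fold to 3.79-fold within the fresh libraries alone.

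The co-activators and their DNA-binding partner were abundant and varied little between libraries. YAP1 (NCBI Gene 100341323) had 203, 208 and 222 CPM in the fresh libraries and 231, 263 and 241 CPM in the preconditioned libraries. The lowest preconditioned library was above the highest fresh library by a narrow margin. The log2 fold change was 0.22 (standard error 0.10, 95% interval −0.03 to 0.46, edgeR's quasi-likelihood adjusted p = 0.20), which corresponds to 0.982-fold to 1.38-fold. With the library size alone in place of TMM it was 0.05. WWTR1 (NCBI Gene 100355214), which encodes TAZ, had 183, 202 and 182 CPM in the fresh libraries and 210, 202 and 206 CPM in the preconditioned libraries, with the second replicates nearly at the same level. Its log2 fold change was 0.12 (standard error 0.10, 95% interval −0.11 to 0.36, adjusted p = 0.42), and it was −0.04 with the library size alone. TEAD1 (NCBI Gene 100349978), which carries YAP and TAZ to DNA, had 243, 210 and 181 CPM in the fresh libraries and 182, 197 and 208 CPM in the preconditioned libraries. The groups overlapped, and its log2 fold change was −0.11 (standard error 0.13, 95% interval −0.42 to 0.21, adjusted p = 0.61). It was −0.28 with the library size alone (adjusted p = 0.19), −0.21 without fresh replicate 3 and 0 without fresh replicate 1, in which TEAD1 was highest. A change of 2-fold lay outside the interval of each of these 3 genes.

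Of the 3 genes known as inhibitors or scaffolds of the pathway, LATS2 was the steadiest. LATS2 (NCBI Gene 100356876), a kinase that restrains YAP and is itself induced by it, had 32.4, 32.3 and 36.4 CPM in the fresh libraries and 32.9, 38.7 and 34.9 CPM in the preconditioned libraries. The values were interleaved, and the log2 fold change was 0.07 (standard error 0.12, 95% interval −0.21 to 0.36, adjusted p = 0.71), which turned to −0.10 with the library size alone. AMOTL2 (NCBI Gene 100345255), an angiomotin that binds YAP at cell junctions, had 20.4, 34 and 32.6 CPM in the fresh libraries and 52.5, 35.2 and 34.2 CPM in the preconditioned libraries. Fresh replicate 1 was low and preconditioned replicate 1 high, while the other 4 libraries lay between 32.6 and 35.2 CPM. The log2 fold change was 0.49 (standard error 0.25, 95% interval −0.10 to 1.07, adjusted p = 0.23), and it was 0.29 without fresh replicate 1 and 0.25 without preconditioned replicate 1. AJUBA (NCBI Gene 100359157), a LIM protein that restrains LATS kinases at junctions, had 256, 241 and 202 CPM in the fresh libraries and 220, 143 and 199 CPM in the preconditioned libraries. Preconditioned replicate 2 was the lowest of the 6 libraries. The log2 fold change was −0.31 (standard error 0.18, 95% interval −0.74 to 0.11, adjusted p = 0.27), and it was −0.48 with the library size alone (adjusted p = 0.14), −0.46 without preconditioned replicate 1 (adjusted p = 0.10) and −0.15 without preconditioned replicate 2.

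The secreted targets CCN1 and CCN2 had higher means in the preconditioned libraries, but with differences within the spread of the libraries. CCN1 (NCBI Gene 100339657), a matrix-associated protein also known as CYR61, had 31.0, 34.9 and 100 CPM in the fresh libraries and 70.5, 137 and 85.6 CPM in the preconditioned libraries. Fresh replicate 3 lay above 2 of the preconditioned libraries, and the other fresh libraries lay below all 3 of them. The log2 fold change of CCN1 was 0.82 (standard error 0.49, 95% interval −0.36 to 2.0, adjusted p = 0.30), which corresponds to 0.779-fold to 3.99-fold. Without fresh replicate 3 it was 1.57, with an adjusted p of 0.088 in edgeR, whereas it was 0.53 without fresh replicate 1 (adjusted p = 0.53) and 0.50 without preconditioned replicate 2 (adjusted p = 0.62). CCN2 (NCBI Gene 100008638), also known as connective tissue growth factor, had 68.2, 152 and 215 CPM in the fresh libraries and 249, 260 and 173 CPM in the preconditioned libraries. The lowest library was fresh replicate 1, and the groups overlapped between 173 and 215 CPM. The log2 fold change of CCN2 was 0.65 (standard error 0.39, 95% interval −0.29 to 1.58, adjusted p = 0.31). It was 0.30 without fresh replicate 1 and 1.04 without fresh replicate 3 (adjusted p = 0.17).

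On the TMM-scaled values, several of the 10 genes had their lowest and highest libraries in common with the summed stromal markers. For CCN1, as for the summed stromal markers, fresh replicate 1 was the lowest library, fresh replicate 3 the highest of the fresh group and preconditioned replicate 2 the highest of all. The same held for YAP1 and CCN2, while for AXL fresh replicate 1 was the lowest and preconditioned replicate 2 the highest. In FPKM, CCN2 was highest in preconditioned replicate 1 (99.7 against 98.8 FPKM in preconditioned replicate 2). In CPM, AJUBA was lowest in preconditioned replicate 2, TEAD1 highest in fresh replicate 1 and ANKRD1 lowest in preconditioned replicate 3, unlike the sum. Among single stromal markers, COL3A1 and VIM shared these libraries with the sum. COL1A2 and ACTA2 were highest in preconditioned replicate 1, and LUM, DCN and KERA were lowest in preconditioned replicate 3. Of the 11 stromal markers, all were detected and tested, 1 was called against 2.29% of all tested genes (COL1A1, the main chain of fibrillar collagen I, log2 fold change 2.66, adjusted p = 0.015), and 7 were above 0 on the log2 scale, with a median of 0.44 that was −0.02 without preconditioned replicate 2. COL1A1 had 56.8, 109 and 108 CPM in the fresh libraries and 537, 693 and 505 CPM in the preconditioned libraries, and its call was lost without fresh replicate 2 or without preconditioned replicate 2 (adjusted p up to 0.069), while its log2 fold change stayed between 2.41 and 2.80 over the 14 alternatives. COL1A2, the partner chain, had 50.2, 76.0 and 178 CPM in the fresh libraries and 270, 235 and 150 CPM in the preconditioned ones (adjusted p = 0.17), while KERA, the corneal keratocyte proteoglycan keratocan, was low and stood at −1.27 on the log2 scale (adjusted p = 0.22). The part of stromal cells in the values of these genes was not tested.

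The last pair of targets had means on opposite sides, lower for ANKRD1 and higher for AXL in the preconditioned libraries, with overlapping groups for both. ANKRD1 (NCBI Gene 100008719), a nuclear protein of stretched muscle and a standard readout of YAP, had 15.7, 15.0 and 56.8 CPM in the fresh libraries and 30.1, 20.8 and 8.33 CPM in the preconditioned libraries. The highest library of the 6 was fresh replicate 3 and the lowest preconditioned replicate 3. Its log2 fold change was −0.56 (standard error 0.65, 95% interval −2.12 to 1.0, adjusted p = 0.59), and the sign turned without fresh replicate 3, when it was 0.36 (adjusted p = 0.69). It was −1.01 without preconditioned replicate 1 and −0.19 without preconditioned replicate 3. AXL (NCBI Gene 100358828), a receptor tyrosine kinase, had 29.8, 39.0 and 38.9 CPM in the fresh libraries and 31.1, 72.1 and 41.1 CPM in the preconditioned libraries. Preconditioned replicate 2 alone stood apart. The log2 fold change of AXL was 0.42 (standard error 0.30, 95% interval −0.30 to 1.14, adjusted p = 0.38), and it was 0.01 without that library and 0.65 without preconditioned replicate 1 (adjusted p = 0.12).

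**Figure D2:**
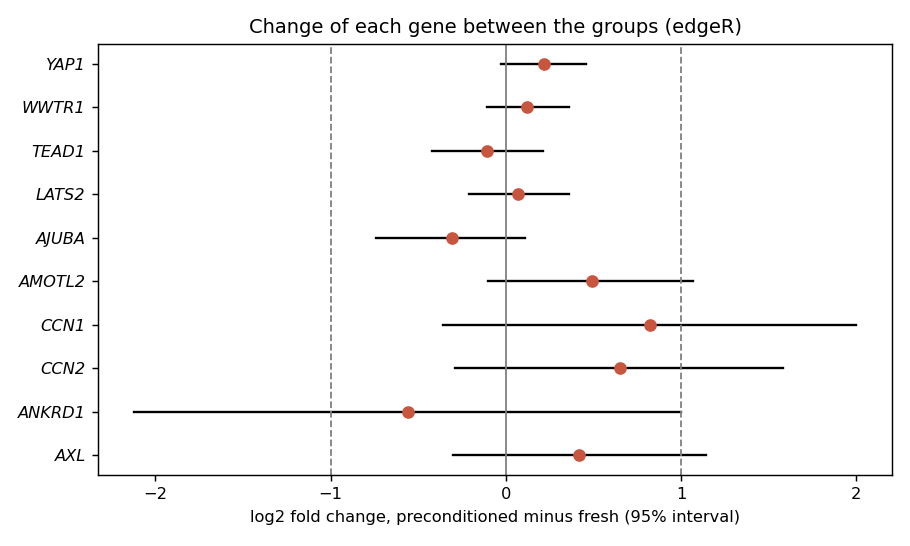
Log2 fold change of each pathway gene (horizontal axis, preconditioned minus fresh) from edgeR, with points for the estimate, lines for its 95% interval and dashed lines at a log2 fold change of 1 in either direction. All 10 intervals include 0, and they are narrowest for WWTR1 and YAP1 and widest for ANKRD1 (−2.12 to 1.0).

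The variation between libraries of the same group differed widely among the genes. edgeR's biological coefficient of variation (BCV), the relative spread of a gene's true level between replicates, was 0.142 for WWTR1, 0.147 for YAP1, 0.149 for LATS2 and 0.163 for TEAD1, against a median of 0.235 over all tested genes. It was 0.347 for CCN2, 0.420 for CCN1 and 0.547 for ANKRD1, of which the last was larger than or equal to that of 92.5% of the tested genes. AXL (0.277), AMOTL2 (0.237) and AJUBA (0.192) lay between these. For ANKRD1 the highest library exceeded the lowest by 3.79-fold in the fresh libraries and by 3.62-fold in the preconditioned libraries. Fresh replicate 3 was the highest fresh library for YAP1, CCN1, CCN2, ANKRD1 and LATS2, and the lowest for TEAD1, WWTR1 and AJUBA. Preconditioned replicate 2 was the highest of all 6 libraries for 5 of the 10 genes, namely YAP1, CCN1, CCN2, LATS2 and AXL, but in FPKM only for YAP1, CCN1 and AXL.

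Levels were compared between genes in FPKM, which divides by the length of each gene and is not scaled by TMM. In the order of the mean over both groups, CCN2 was first (29.9 to 99.7 FPKM over the 6 libraries), followed by AJUBA (32.2 to 66.2 FPKM), YAP1 (45.8 to 51.4 FPKM), WWTR1 (37.8 to 43.9 FPKM) and CCN1 (16.1 to 61.7 FPKM). TEAD1 (16.9 to 24.5 FPKM) and ANKRD1 (4.13 to 31.6 FPKM) came next, and AXL (7.13 to 15.6 FPKM), AMOTL2 (4.01 to 9.44 FPKM) and LATS2 (4.97 to 6.07 FPKM) were last. The ranges of neighbours overlapped at every step of this order except between YAP1 and WWTR1, where YAP1 was above WWTR1 in all 6 libraries. AJUBA was above YAP1 in 4 of 6 libraries, and ANKRD1 was above AXL in 3 of 6. The order differed between the groups. AJUBA had a mean of 60.6 FPKM in the fresh libraries, above YAP1 at 47.8 FPKM, and 43.5 FPKM in the preconditioned libraries, below YAP1 at 49.4 FPKM and CCN1 at 45.2 FPKM. ANKRD1 was above AXL in the fresh means (16.2 and 9.04 FPKM) and below it in the preconditioned means (9.75 and 10.7 FPKM). By mean FPKM, CCN2 exceeded 93.3% of the tested genes and LATS2 50.1%.

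Each of these genes has paralogues of the same family, and the balance within a family was compared by ratios of FPKM, from which the scaling between libraries cancels. The ratio of WWTR1 to YAP1 was 0.867, 0.930 and 0.787 in the fresh libraries and 0.869, 0.736 and 0.818 in the preconditioned libraries. The ratio of CCN1 to CCN2 was 0.539, 0.272 and 0.553 in the fresh libraries and 0.337, 0.625 and 0.588 in the preconditioned libraries. LATS2 was at 0.610 to 0.654 of LATS1 in the fresh libraries and at 0.620 to 0.736 in the preconditioned libraries. None of these 3 ratios separated the groups.

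TEAD1 made up 42.7%, 40.8% and 36.6% of the summed FPKM of the 4 TEAD genes in the fresh libraries and 41.2%, 44.2% and 46.0% in the preconditioned libraries, with the groups overlapping. TEAD4, the least expressed of the family, had 10.7, 10.4 and 9.98 CPM in the fresh libraries and 5.6, 6.14 and 3.82 CPM in the preconditioned libraries. All fresh libraries were above all preconditioned ones, and the log2 fold change was −1.0 (standard error 0.23, edgeR's quasi-likelihood adjusted p = 0.053, with 0.0014 to 0.17 over 14 alternatives). AXL made up 28.5% to 47.3% of the summed FPKM of the TAM receptors AXL, TYRO3 and MERTK over the 6 libraries, with overlapping groups and a difference of −0.18 on the log2 scale (exact 2-sided permutation p = 0.5). AMOTL2 made up 33.9%, 48.2% and 51.8% of the summed FPKM of the angiomotins in the fresh libraries and 60.4%, 55.2% and 52.4% in the preconditioned libraries. This was the single separated ratio of the 6 compared, with a difference of 0.35 on the log2 scale (exact 2-sided permutation p = 0.1, the smallest that 3 libraries against 3 allow, adjusted p = 0.50 over the 6 ratios). Without fresh replicate 1, in which the share was lowest, the difference was 0.162. AMOT itself was nearly absent, at 0.839 ± 0.820 and 0.788 ± 0.255 CPM (SD, 3 per group).

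**Figure D3:**
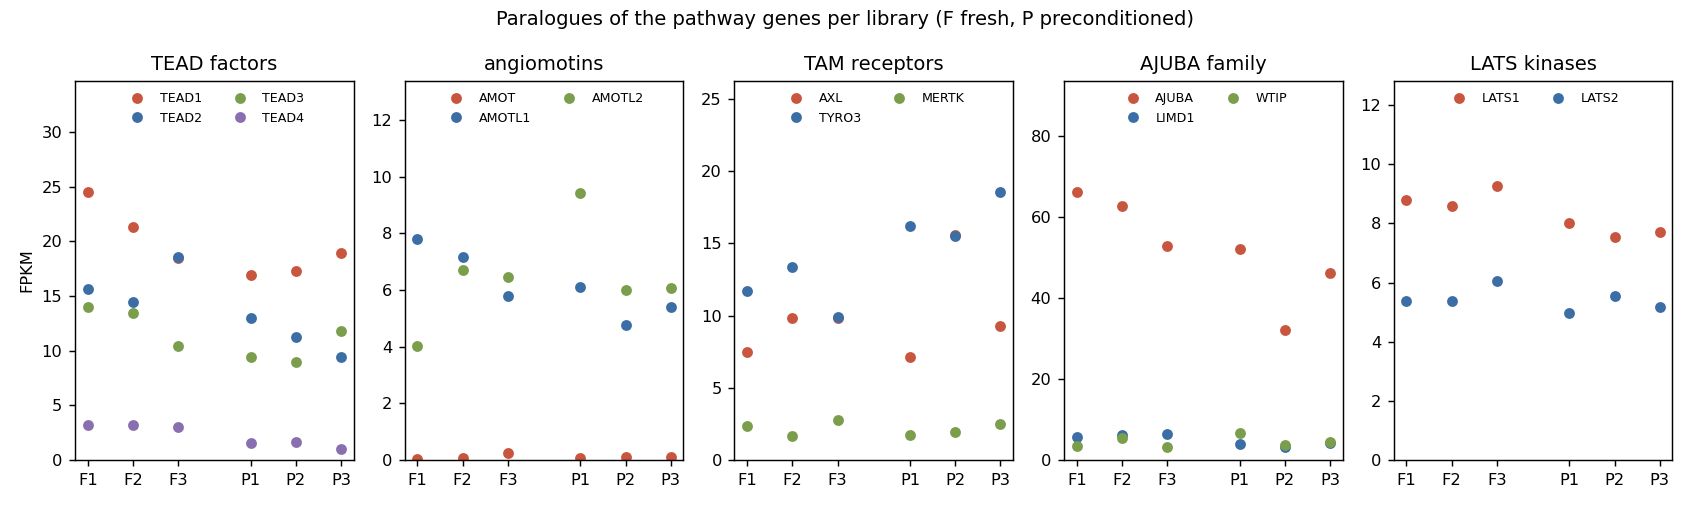
FPKM (vertical axis, from 0) of the paralogues in 5 families of the pathway, with 1 point per gene and library for fresh (F) and preconditioned (P) replicates 1 to 3. TEAD1, AJUBA and LATS1 lead their families in most libraries, TEAD4 is lower in all 3 preconditioned libraries, and TYRO3 is higher in all 3.

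The remaining genes of the pathway were taken from lists of its upstream kinases, of TEAD and VGLL factors, of further targets and of paralogues. Of 27 upstream genes, all tested, 1 passed an adjusted p of 0.05 in edgeR, against 5.08% of all tested genes, and none was called with the fold cutoff. DESeq2 passed 3 of the 27, all lower, against 19.1% of the genes it tested. WWC1, the KIBRA scaffold that promotes LATS activity, fell from 97.8, 101 and 96.6 CPM in the fresh libraries to 61.6, 55.0 and 74.4 CPM in the preconditioned libraries, a difference of −0.63 on the log2 scale (0.13 as its standard error, edgeR's quasi-likelihood adjusted p = 0.045, with 0.0042 to 0.16 over 14 alternatives). Without any single library other than preconditioned replicate 1, neither WWC1 nor any other gene of the pathway and cytoskeleton lists below passed an adjusted p of 0.05. The next by p were LIMD1, a relative of AJUBA, at −0.54 on the log2 scale (adjusted p = 0.065), NF2, the tumour suppressor merlin, with −0.51 (adjusted p = 0.078), and STK3, with 0.38 (adjusted p = 0.10). Over the 27 genes, 11 had a log2 fold change above 0 and 16 below, with a median of −0.09, which was −0.27 with the library size alone, a scaling that moved the median of all tested genes to −0.16.

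Of the 7 other TEAD and VGLL factors, 6 were tested, none passed an adjusted p of 0.05 in edgeR and DESeq2 passed 1 (against 5.08% and 19.1% of all genes tested). In edgeR 1 lay under 0.05 by its unadjusted p, against 30.6% of all tested genes. All 6 were below 0 on the log2 scale (median −0.35), and this also held with DESeq2's size factors. It held with the library size alone too, but that scaling lowers all genes (median −0.16) and so could not turn these signs. By contrast, 2 were above 0 without fresh replicate 2, 1 without fresh replicate 3 and 1 without preconditioned replicate 2. TEAD2 stood at −0.36 on the log2 scale (adjusted p = 0.19), TEAD3 at −0.15 (adjusted p = 0.54) and VGLL3, a cofactor of TEAD, at −0.33 (adjusted p = 0.19).

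Among 16 further genes known as YAP and TEAD targets, 15 were tested and 1 was called, against 2.29% of all tested genes. NUAK2, a kinase that is induced by YAP, had 11.2, 10.2 and 13.9 CPM in the fresh libraries and 6.09, 3.33 and 3.66 CPM in the preconditioned libraries. It fell by 1.44 on the log2 scale (standard error 0.29, edgeR's quasi-likelihood adjusted p = 0.043, with 0.00011 to 0.15 over 14 alternatives). GADD45A, a stress-induced gene, had 40.5, 46.4 and 45.5 CPM in the fresh libraries and 60.3, 79.4 and 59.1 CPM in the preconditioned libraries, also without overlap but with an adjusted p of 0.059 in edgeR and 0.016 in DESeq2 (log2 fold change 0.59). DESeq2 passed GADD45A and NUAK2 from this list, against 19.1% of the genes it tested. ASAP1 stood at −0.40 on the log2 scale (adjusted p = 0.093), and NT5E, the ectoenzyme CD73, at −0.66 (adjusted p = 0.16). The median over the 15 genes was −0.25, with 5 genes above 0 and 10 below. Without fresh replicate 3 it was 0.10, with 8 above 0 and 7 below.

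Of 15 paralogues and ligands of the targets, 14 were in the table and 10 were tested. TYRO3, a receptor of the same family as AXL, rose from 51.9, 59.2 and 43.4 CPM in the fresh libraries to 78.5, 79.4 and 91.6 CPM in the preconditioned libraries, a difference of 0.69 on the log2 scale (0.14 as its standard error, edgeR's quasi-likelihood adjusted p = 0.045, with 0.0038 to 0.15 over 14 alternatives). In edgeR it was the only one of the 10 with an adjusted p of at most 0.05, against 5.08% of all tested genes. DESeq2 passed 3 paralogues, namely TYRO3, CCN3 (adjusted p = 0.035) and, in the lower direction, LIMD1 (adjusted p = 0.02), against 19.1% of the genes it tested. CCN3 was expressed at 0.905 ± 0.228 CPM in the fresh libraries and 2.70 ± 1.81 CPM in the preconditioned libraries (SD, 3 per group, adjusted p = 0.12 in edgeR), and ANKRD23, a muscle ankyrin repeat gene related to ANKRD1, stood at −0.66 on the log2 scale (adjusted p = 0.19).

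AP-1 factors bind many enhancers together with TEAD, and SRF drives actin genes, some of which YAP also induces. Of the 7 AP-1 genes tested, none passed an adjusted p of 0.05 in edgeR or DESeq2, against 5.08% and 19.1% of all genes tested. By the unadjusted p in edgeR none did, against 30.6% of all tested genes. Their log2 fold changes lay between −0.07 and 0.37. FOS was the lowest by p, with a log2 fold change of 0.37 (adjusted p = 0.21), followed by FOSL2 (−0.07), JUN (0.21) and ATF3 (0.21). Of 12 genes of SRF and the actin cytoskeleton, all tested, 2 passed an adjusted p of 0.05 and both fell, against 5.08% of all tested genes that passed in either direction. ACTN1, an actin crosslinker, had 322, 308 and 327 CPM in the fresh libraries and 225, 196 and 175 CPM in the preconditioned libraries, a difference of −0.68 on the log2 scale (0.12 as its standard error, edgeR's quasi-likelihood adjusted p = 0.039, with 0.00045 to 0.15 over 14 alternatives). TPM2, a tropomyosin, had 86.5, 74.9 and 107 CPM in the fresh libraries and 41.8, 51.4 and 56.5 CPM in the preconditioned libraries, a difference of −0.84 on the log2 scale (0.17 as its standard error, edgeR's quasi-likelihood adjusted p = 0.044, with 0.0014 to 0.15 over 14 alternatives). FHL2, a LIM cofactor, stood at −1.10 on the log2 scale (adjusted p = 0.11 in edgeR and 0.021 in DESeq2, which passed 3 of the 12 against 19.1% of the genes it tested) and TPM1 at 0.31 (adjusted p = 0.20). The median over the 12 genes was −0.30, with 4 above 0 and 8 below. It was −0.04 without fresh replicate 3, with 6 on each side, −0.12 without preconditioned replicate 3, −0.18 without preconditioned replicate 2 and −0.47 without fresh replicate 2.

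**Figure D4:**
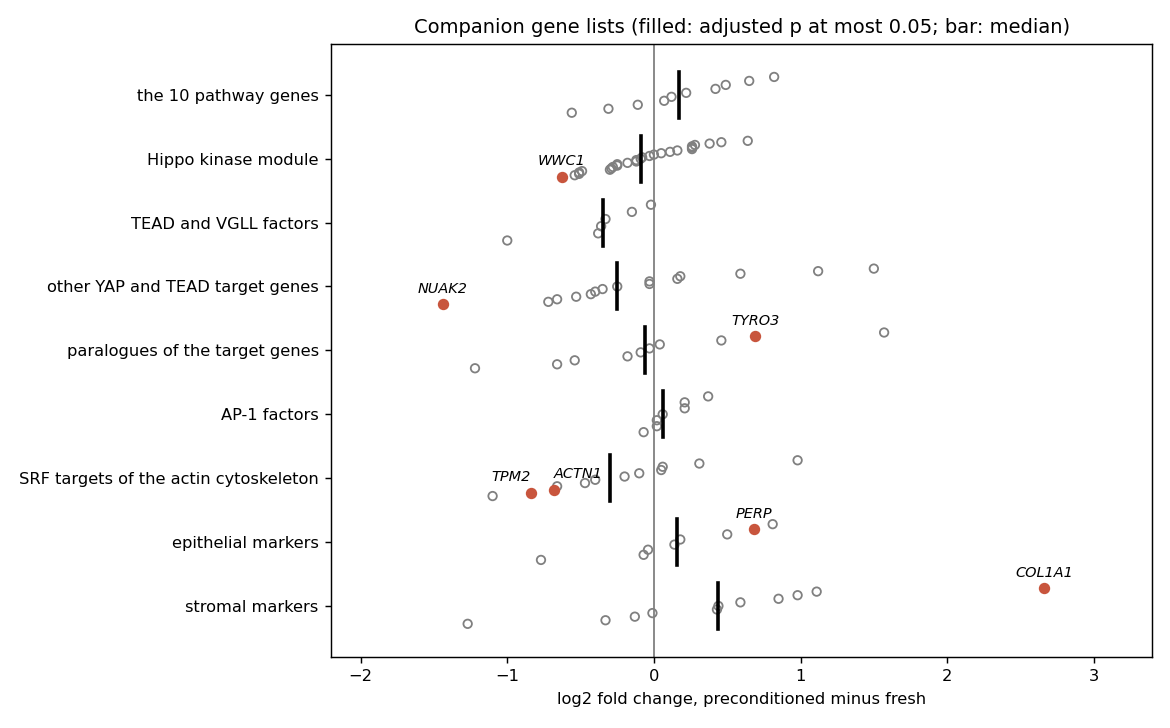
Log2 fold change (horizontal axis, preconditioned minus fresh) of every tested gene in the 10 pathway genes and 8 companion lists, with filled points for an adjusted p of at most 0.05 in edgeR and black bars for list medians. None of the 10 pathway genes is filled, and the filled genes are WWC1, NUAK2, TYRO3, ACTN1, TPM2, the epithelial marker PERP and the stromal marker COL1A1.

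Markers of other cell types were low. The 4 melanocyte markers summed to 0.0580 to 0.396 CPM over the 6 libraries, and none of them passed the filter on low counts. Endothelial markers summed to 2.67 to 3.13 CPM in the fresh libraries and 1.07 to 13 CPM in the preconditioned libraries, and immune markers to 1.91 to 2.38 and 2.1 to 7.67 CPM, both highest in preconditioned replicate 2. The endothelial sum in that library was almost all PECAM1 (12.8 CPM), with CDH5 at 0.224 CPM and VWF and KDR at 0 CPM. VWF and KDR had lower means in the preconditioned group. Of the 8 epithelial markers in the table, edgeR passed 1 at an adjusted p of 0.05, against 5.08% of all tested genes, namely PERP, a desmosome protein, at 0.68 on the log2 scale (adjusted p = 0.039), and this was lost without any single library other than preconditioned replicate 1. TP63, the transcription factor that marks limbal basal cells, went the other way, with 246, 226 and 239 CPM in the fresh libraries and 183, 122 and 112 CPM in the preconditioned libraries. Its groups did not overlap, and it stood at −0.77 on the log2 scale (adjusted p = 0.059 in edgeR, with 0.004 to 0.19 over 14 alternatives, of which it passed 6). EPCAM was at 0.50 (adjusted p = 0.06) and PAX6, the master regulator of eye development, at 0.81 (adjusted p = 0.11). DESeq2 passed PERP, EPCAM and PAX6 upward and TP63 downward, that is 4 of the 8 against 19.1% of the genes it tested. The part of these shifts in the values of the pathway genes was not tested.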

How the data were processed

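Counts per gene and FPKM values were deposited for 6 rabbit libraries. Alignment with hisat2 and counting with htseq-count were done by the authors, and the deposited counts are not normalized. The genome build, annotation and strand setting are not given in the sources used here. The FPKM values deposited by the authors equalled the count divided by the library total and by a fixed length for all 22190 genes. Each of the 10 genes had its own identifier and description, shared with no other gene in the table.

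Counts were filtered with filterByExpr, scaled by TMM and tested with the quasi-likelihood test of edgeR 4.0.16 (robust, group as the only factor) in R 4.3.3, with Benjamini-Hochberg adjustment over all 15029 tested genes. The 95% intervals used standard errors derived from the F statistic. Alternatives were DESeq2 1.42.0, its size factors, library size alone, other filters, a block for the replicate number, omission of each library in turn, and limma 3.58.1 on log2(FPKM + 1) and log2(FPKM + 0.1). The fits were tested on simulated counts. Libraries of a group differed by more than sampling noise (chi-square per degree of freedom 51.0 to 156), and whether they came from separate animals is not stated, so that p values measure the spread between these libraries. In FPKM tests a fold change is on the log2(value + pseudocount) scale.

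The 10 genes and all lists were chosen with earlier results of these data known. Named genes were the 10, those of each pathway list with an adjusted p of at most 0.05, the next by p up to 4, and the paralogues in a ratio. Of the marker lists, genes that define the cell type and any with an adjusted p of at most 0.05 were named.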

Additional observations from a re-analysis of the deposited data

How the results depend on the processing

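Across the 14 alternatives, 0 of the 10 pathway genes was called and none reached an adjusted p of 0.05, including with DESeq2, where 19.1% of the genes passed that adjusted p, and without preconditioned replicate 1, where 25.2% did. Of the 140 values of single genes, 133 kept their direction and their side of the threshold. The sign turned for WWTR1 with the library size alone (−0.04), log2(FPKM + 1) (−0.04) and log2(FPKM + 0.1) (−0.04), for LATS2 with the same settings (−0.10, −0.08 and −0.09), and for ANKRD1 without fresh replicate 3 (0.36, with −1.01 at the other end of the omissions). The median log2 fold change of the 10 genes was 0.17, and 0.001, 0.002 and 0.002 with those settings, while the library size alone moved the median of all tested genes to −0.16. With 1 library omitted at a time it lay between 0.075 and 0.309. The number of genes called over the whole table was 344, with 1190 from DESeq2, 565 with the library size alone (142 higher and 423 lower, against 163 and 181), 590 on log2(FPKM + 0.1), 30 with the replicate block and 14 (without fresh replicate 2) to 1546 (without preconditioned replicate 1) with 1 library omitted. Libraries of the same replicate number did not deviate together (correlations of −0.129 to −0.084), and whether they share an animal or a batch is not given in the sources used here. WWC1, NUAK2, TYRO3, ACTN1, TPM2 and the epithelial marker PERP each lost their adjusted p of 0.05 with the replicate block (0.087 to 0.11). The alternatives for the companion lists were added after the data were seen. Each of the 10 genes had at least 253 counts in every library.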
